A study of Mus musculus with 4 samples.

Results

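The potassium channel genes described here are every gene whose symbol starts with Kcn, without antisense or opposite-strand transcripts, together with Abcc8 and Abcc9, the sulfonylurea receptor subunits of ATP-sensitive channels. They make up 96 of the 27734 genes shared by the feature lists of all 4 libraries, and 5 antisense transcripts were left out. By family they comprise 40 pore-forming and 13 auxiliary subunits of voltage-gated (Kv) channels, 8 pores activated by calcium or sodium, 4 beta subunits of the large-conductance calcium-activated (BK) channel, 15 inward rectifiers (Kir), 2 sulfonylurea receptors and 14 two-pore-domain (K2P) channels. The members were chosen by symbol, with no threshold on a measured value.

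The study loaded cells of digested mouse aorta into droplets and made 5′ single-cell RNA libraries, 1 library for each of 4 groups, from animals aged 16 to 20 weeks. The conditional knockout (cKO) animals were CNC-SMC-Cre;Smad4flox/flox;R26-tdT, in which the Cre recombinase acts on loxP-flanked Smad4, the common mediator Smad of TGF-beta and BMP signalling. The control animals were CNC-SMC-Cre;R26-tdT, so they carry the same Cre and the same tdTomato reporter with no floxed Smad4 allele in their label, and the promoter behind the Cre is not spelled out in the labels. Each genotype was sampled in the aortic arch and in the descending thoracic aorta, and the sources used here do not give the number of animals behind each library. With 1 library per group, no difference below has a replicate check, and every interval covers counting error only, at 95%.

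Potassium channels set the resting potential of vascular cells: when they open, smooth muscle hyperpolarises, voltage-gated calcium channels close and the vessel relaxes. In arterial smooth muscle the best known are BK channels, which answer calcium sparks, Kv channels, which limit depolarisation, and KATP channels, built from a Kir6 pore and a sulfonylurea receptor. Endothelium uses the calcium-activated channels SK3 and IK1 and the inward rectifier Kir2.1 to send a hyperpolarising signal to smooth muscle, and lymphocytes use Kv1.3 and IK1 to sustain calcium entry.

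The libraries held 6351 to 9283 barcodes and 49407811 to 98866674 UMIs, and 4941 to 8002 cells were kept, with a median of 5774.5 to 9954.5 UMIs per cell. The control arch library was the deepest. Any pair of libraries shared 66 to 99 barcode sequences. Classes were set by marker genes that are no potassium channel genes, which left 1383, 3838, 1544 and 1322 gated smooth muscle cells in the arch libraries (cKO, then control) and the descending libraries (cKO, then control), and values below follow that order. Gated endothelium numbered 147, 701, 1052 and 761 cells, gated fibroblasts 768, 1871, 1285 and 994, gated leukocytes 2366, 799, 863 and 925, and gated pericytes 4, 30, 55 and 52. Smad4 stood at 63.2, 73.6, 88.9 and 90.9 CPM (counts scaled to the UMI total of the class) in gated smooth muscle. These are 5′ tags and the sources used here do not name the deleted exons, so the level does not check the deletion. The cKO arch library was counted against a feature list of 28693 entries and the others against 32285, which cannot be told apart from a difference that sets this library against the rest.

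Of the 96 genes, 41 were detected in at least 1 of 5 classes and 55 in none. A gene counted as detected in a class of a library at 10 or more UMIs, 5 or more CPM and at least 0.1 of its level in the highest gated class of that library, in classes of 50 or more cells. Gated smooth muscle had 21 detected genes, fibroblasts 19, endothelium 16, leukocytes 14 and pericytes 5. These counts depend on class size, since 10 UMIs is a higher CPM in a class of few cells. Kcnq1 and Kcne4, at means of 41.3 and 31.25 CPM, were highest in pericytes but did not count as detected there. No gene was detected in all 5 classes, 22 were detected in 2 to 4 classes and 19 in 1 class. Over all kept cells, 3 genes had no UMI, 16 had 1 to 9, 29 had 10 to 99 and 48 had 100 or more. UMIs count the 5′ ends of molecules, and CPM was not divided by transcript length. Whether molecules of different genes were captured equally well was not tested.

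**Figure D1:**
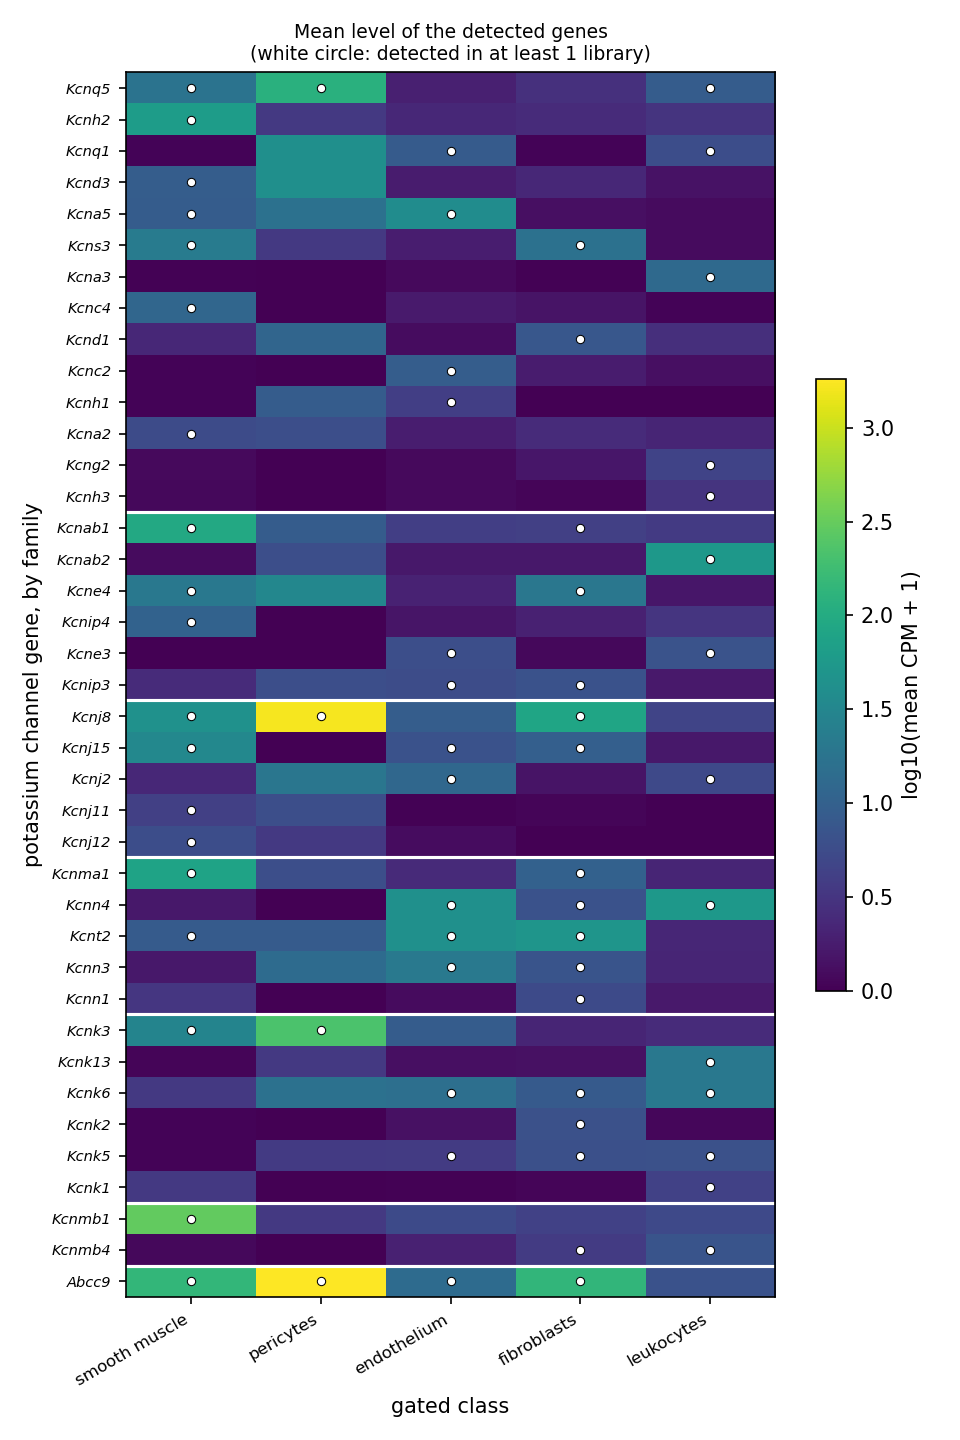
Mean level of 39 of the 41 detected genes (log10 of mean CPM plus 1, colour) in each gated class, averaged over the libraries with 50 or more cells of the class, ordered by family. A white circle marks detection in at least 1 library. Abcc9 and Kcnj8 are brightest in pericytes and Kcnmb1 in smooth muscle, while Kcna3, Kcnab2 and Kcnk13 have their circle in leukocytes alone.

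Several genes were detected in a single class at 5 or more times the next class mean. In smooth muscle these were Kcnmb1, the BK beta 1 subunit, at a mean of 300.6 CPM and 68.2 times the next class, Kcnh2, which encodes the Kv11.1 (ERG) pore, at 61.8 CPM and 24.6 times, and Kcnc4 (Kv3.4) at 10.85 CPM and 15 times. In leukocytes they were Kcna3, the Kv1.3 pore, at 12.05 CPM and 55.2 times, Kcnab2, a cytosolic beta subunit of Kv1 channels, at 53.8 CPM and 10.7 times, Kcnk13 (THIK-1) at 19.3 CPM and 7.68 times, Kcnh3 at 2.14 CPM and 9.44 times, and Kcng2 at 3.55 CPM and 6.30 times. Endothelium had Kcnc2 (Kv3.2) at 8.17 CPM and 10.8 times, and fibroblasts Kcnk2, the mechanically gated TREK-1, at 5.39 CPM and 12.9 times. Kcnd3 (Kv4.3) was detected in smooth muscle alone, but its mean was higher in pericytes, at 41.1 against 8.19 CPM, where it had too few UMIs to count as detected. Only the 5 classes enter these ratios, and the pericyte means cover the descending libraries alone. Outside them, gated mesothelial cells had Kcnh3 at 5.50 CPM in the cKO and 10.6 in the control descending library, above its leukocyte mean.

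Of the 40 voltage-gated pores, 16 were detected in at least 1 class, 9 of them in smooth muscle, 6 in endothelium, 5 in leukocytes, 4 in fibroblasts and 2 in pericytes. Of the 15 inward rectifiers, 5 were detected (Kcnj2, Kcnj8, Kcnj11, Kcnj12 and Kcnj15), 4 of them in smooth muscle. Of the 14 K2P channels, 6 were detected, and 4 of these in leukocytes. The G-protein-gated rectifier genes Kcnj3, Kcnj5, Kcnj6 and Kcnj9 were among the 10 inward rectifiers not detected in any class.

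The BK channel was represented in smooth muscle by its pore Kcnma1 and its beta 1 subunit Kcnmb1, which raises the calcium sensitivity of the pore. Kcnmb1 stood at 205.1 CPM in the cKO arch, 344.2 in the control arch, 323.7 in the cKO descending and 329.3 in the control descending library, and Kcnma1 at 28.6, 86.8, 92.5 and 97.5 CPM. For both genes 3 libraries lay close together and the cKO arch library lay below them. A Kcnmb1 UMI was found in 72.1, 89.2, 81.8 and 81.2% of gated smooth muscle cells, and in 41.8, 61.1, 55.8 and 58.5% once each cell was thinned to 3000 UMIs. In leukocytes, which should lack it, the shares were 2.66, 4.26, 1.39 and 1.73%, and 1.47, 3.06, 0.561 and 0.758% after thinning. A Kcnma1 UMI was found in 25.9, 61.3, 55.3 and 57.6% of smooth muscle cells, or 8.91, 22.5, 22.8 and 23.0% thinned, against 0.549, 1.001, 0.695 and 0.216% of leukocytes, or 0.133, 0.719, 0.140 and 0.126% thinned. The median depth was 10480 to 13670 UMIs in gated smooth muscle and 4114 to 6512 in leukocytes. The other BK beta subunits were close to absent from smooth muscle: Kcnmb2 had 0 UMIs in every library, Kcnmb3 1 UMI in the control arch, and Kcnmb4 1, 22, 0 and 3 UMIs. Pericytes, a much smaller class, held few BK UMIs: Kcnmb1 had 1 UMI in the cKO and 0 in the control descending library and Kcnma1 2 and 0.

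Kcnmb1 lies on the forward strand of chromosome 11 (GRCm38, GENCODE vM21, chr11:33963013-33973641), inside Kcnip1, which is transcribed from the opposite strand and had 0 to 6 UMIs in gated smooth muscle. Kcnma1 spans chr14:23289431-24014491 on the reverse strand. The 250 bases before the RefSeq start of each gene are shown because the pair was lower in the same library, at chr11:33962763-33963012 (forward strand) and chr14:24004206-24004455 (reverse strand) of GRCm38.p6. RefSeq and GENCODE place the Kcnma1 start differently, and its stretch lies inside the GENCODE span of the gene.
Kcnmb1: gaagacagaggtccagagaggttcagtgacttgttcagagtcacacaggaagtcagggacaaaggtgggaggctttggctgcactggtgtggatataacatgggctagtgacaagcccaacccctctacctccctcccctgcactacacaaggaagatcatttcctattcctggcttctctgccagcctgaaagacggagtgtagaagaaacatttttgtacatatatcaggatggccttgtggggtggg
Kcnma1: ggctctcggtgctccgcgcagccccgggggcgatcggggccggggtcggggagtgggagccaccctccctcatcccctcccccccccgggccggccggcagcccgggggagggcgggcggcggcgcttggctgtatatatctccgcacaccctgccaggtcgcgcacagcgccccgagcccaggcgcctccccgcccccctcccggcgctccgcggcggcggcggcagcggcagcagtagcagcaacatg
The first has a GC content of 50.8% and the second 79.2%. Both strands were searched for the CArG box, the motif of serum response factor, for the palindrome GTCTAGAC and for the Smad half-site GTCTG, and neither stretch held any of them. Across 32851 promoters of the same length, 1.47% held a CArG box, 0.167% GTCTAGAC and 42.2% GTCTG. Of 95 promoters matched to 70 of the 96 genes, none held the first or the second motif and 46 (48.4%) held GTCTG. A match is a string of letters and not a binding site, and its absence covers these 250 bases only.

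KATP channels of vessels are built from Kir6.1, encoded by Kcnj8, and SUR2, encoded by Abcc9. Both genes were highest in gated pericytes. In the descending libraries, which alone held 50 or more pericytes, Abcc9 stood at 2070 CPM in the cKO and 1581 in the control, and Kcnj8 at 1598 and 1713 CPM. The 30 pericytes of the control arch gave 2147 CPM for Abcc9 and 2025 for Kcnj8, while 4 cKO arch pericytes are too few to describe. A Kcnj8 UMI was present in 78.2 and 78.8% and an Abcc9 UMI in 83.6 and 84.6% of pericytes of the descending libraries. Thinned to 3000 UMIs, which left 30 and 29 cells, the shares were 70.0 and 72.4% for Kcnj8 and 73.3 and 86.2% for Abcc9. In leukocytes of the same libraries a UMI was found in 2.43 and 1.84% for Kcnj8 and 2.78 and 2.16% for Abcc9, or 2.38 and 1.14% and 1.82 and 0.884% thinned, and the median depth of pericytes was 3105 and 3160 UMIs. In smooth muscle Abcc9 stood at 113.1, 110.0, 189.5 and 162.6 CPM and Kcnj8 at 26.4, 53.2, 47.3 and 48.6 CPM. Abcc9 was thus lower in both arch libraries than in both descending libraries, while Kcnj8 was low in the cKO arch alone. Fibroblasts also held the pair, with Abcc9 at 137, 210.5, 98.3 and 114.2 CPM and Kcnj8 at 54.9, 138.8, 60.6 and 75.3 CPM, and the control arch was the highest for both. In endothelium Kcnj8 stood at 4.47 to 13.2 CPM and Abcc9 at 10.7 to 15.6 CPM, and in leukocytes at 1.91 to 5.08 and 2.97 to 9.16 CPM. Because pericytes were so high, smooth muscle of both descending libraries fell under 0.1 of the pericyte level for Kcnj8, as did that of the cKO descending library for Abcc9, and the condition on the highest class removed them from the detected genes there. In the arch, pericytes were under 50 cells and did not enter this condition. Kcnj8 therefore counted as detected in smooth muscle from the arch libraries alone, and its detection does not compare the regions.

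**Figure D2:**
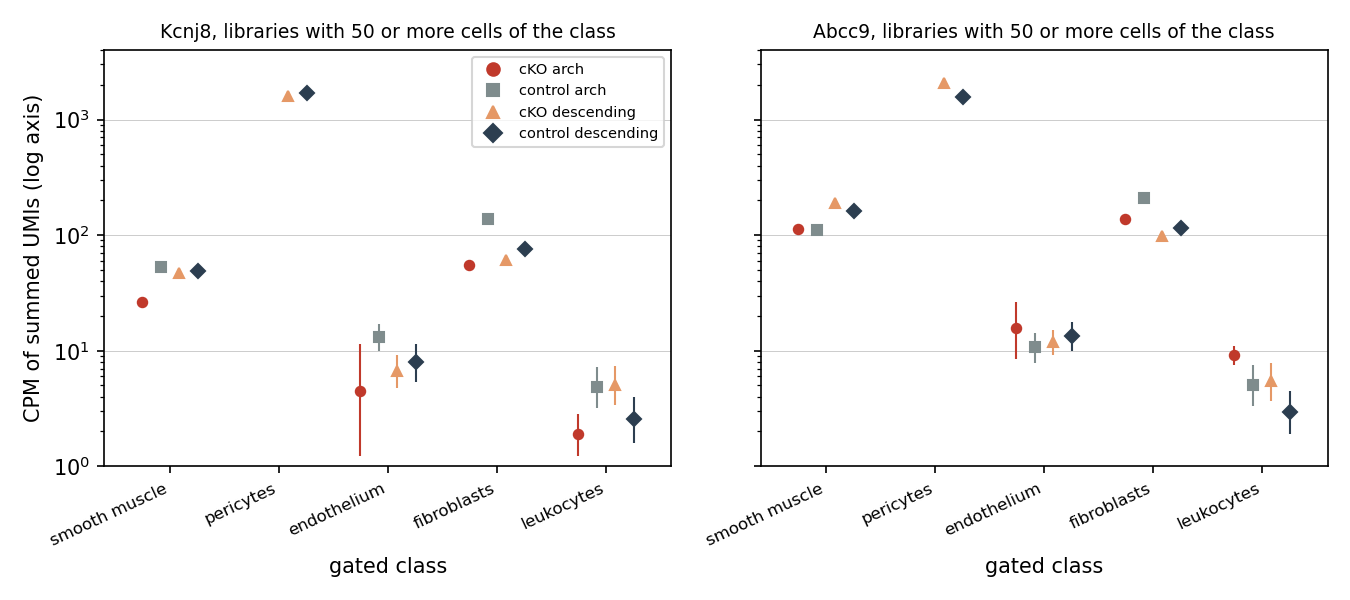
Kcnj8 (left) and Abcc9 (right) in CPM on a log axis for each gated class, 1 point per library with 50 or more cells of the class and bars for the 95% Poisson interval. Pericytes of the descending libraries lie between 1581 and 2070 CPM for both genes, smooth muscle and fibroblasts between 26.4 and 210.5 CPM, and endothelium and leukocytes below 16 CPM.

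Kcnj8 (chr6:142564837-142571614) and Abcc9 (chr6:142587862-142702315) are neighbours on the reverse strand of chromosome 6, 16247 bases apart with 0 protein-coding genes between them. The stretches before their RefSeq starts are shown because both genes were highest in pericytes, with GTCTG in capitals, at chr6:142571615-142571864 and chr6:142702275-142702524 (reverse strand, GRCm38.p6). The Abcc9 stretch overlaps the GENCODE span of the gene at its end.
Kcnj8: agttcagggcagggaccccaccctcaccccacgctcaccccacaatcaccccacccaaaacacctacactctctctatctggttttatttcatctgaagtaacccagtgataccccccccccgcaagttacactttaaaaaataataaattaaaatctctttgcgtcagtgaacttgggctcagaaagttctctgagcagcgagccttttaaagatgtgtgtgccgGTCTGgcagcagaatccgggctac
Abcc9: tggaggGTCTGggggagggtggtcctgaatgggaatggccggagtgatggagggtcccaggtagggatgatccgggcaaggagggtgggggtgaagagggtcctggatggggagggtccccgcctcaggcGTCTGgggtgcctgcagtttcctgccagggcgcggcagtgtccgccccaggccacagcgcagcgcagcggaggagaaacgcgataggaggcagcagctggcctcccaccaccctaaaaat
The Kcnj8 stretch held 1 GTCTG and the Abcc9 stretch 2, counted on both strands, and neither held a CArG box or GTCTAGAC.

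The second KATP pair, Kcnj11 (Kir6.2) and Abcc8 (SUR1), known from pancreatic beta cells, lies on the reverse strand of chromosome 7, with Kcnj11 at chr7:46093953-46100764 and Abcc8 at chr7:46104523-46180033, 3758 bases apart. Kcnj11 had 1, 98, 93 and 92 UMIs in gated smooth muscle, or 0.0612, 1.76, 5.29 and 5.43 CPM. Abcc8 had 2, 16, 39 and 33 UMIs, or 0.122, 0.288, 2.22 and 1.95 CPM, under the detection level in every library. Both were lower in the arch than in the descending libraries and lowest in the cKO arch. Over all kept cells Kcnj11 had 1, 102, 98 and 97 UMIs, so smooth muscle carried nearly all of them. The single Kcnj11 UMI of the cKO arch, where another feature list was used, gives a wide interval: the log2 ratio to the control arch was -4.85, with an interval from -10.17 to -2.34.

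Among voltage-gated channels, smooth muscle was led by Kcnab1, a beta subunit of Kv1 channels, at 33.8, 83.7, 115.6 and 134.7 CPM, and by Kcnh2 at 45.0, 43.6, 81.0 and 77.6 CPM. Kcnab1 was lowest in the cKO arch, and Kcnh2 was low in both arch libraries. Kcnq5 (Kv7.5) stood at 9.54, 13.6, 21.0 and 21.4 CPM and Kcne4, an auxiliary subunit of Kv channels, at 15.2, 16.8, 19.3 and 24.6 CPM. Kcns3 (Kv9.3), a silent subunit that needs another pore subunit to form a channel, stood at 5.94, 14.3, 34.0 and 32.5 CPM. Kcna5 (Kv1.5) was at 1.90, 2.47, 15.7 and 11.7 CPM, low in both arch libraries. Of the remaining leading genes, the K2P channel Kcnk3 (TASK-1) stood at 10.95, 25.6, 45.1 and 34.4 CPM, and Kcnj15 (Kir4.2) at 16.5, 64.7, 19.4 and 26.7 CPM, highest in the control arch.

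**Figure D3:**
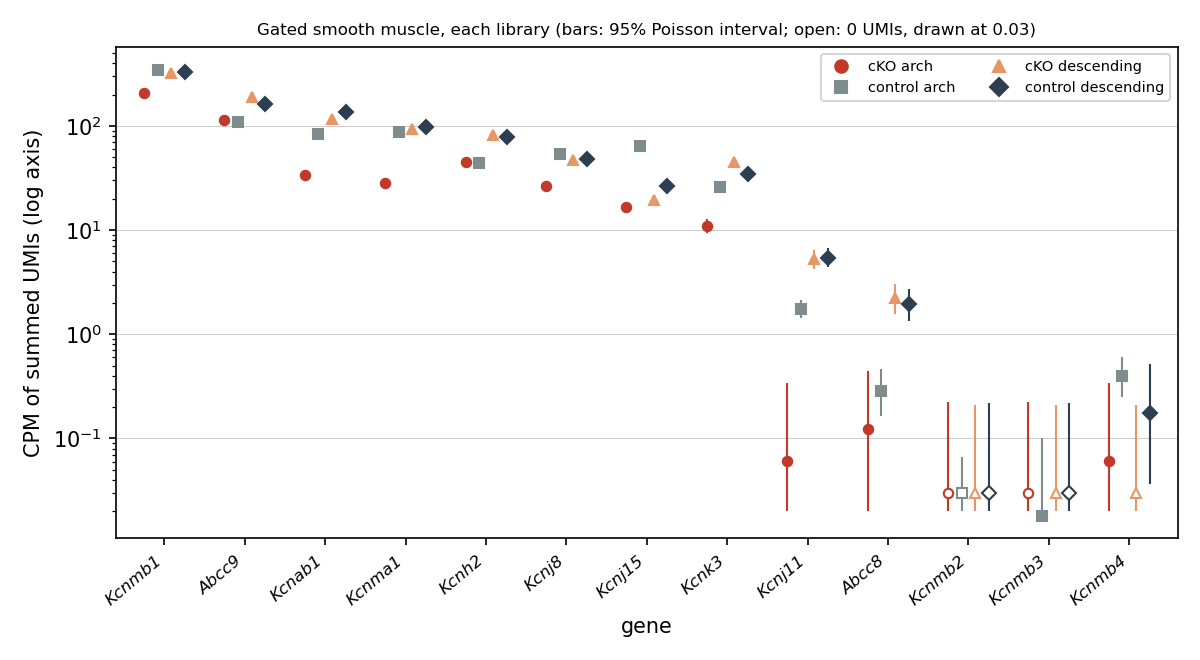
The 8 leading genes of gated smooth muscle and the remaining KATP and BK genes in CPM on a log axis, 1 point per library with its 95% Poisson interval; open symbols mark 0 UMIs and are drawn at 0.03. The cKO arch point is the lowest of the 4 for Kcnmb1, Kcnab1, Kcnma1, Kcnj8, Kcnj15, Kcnk3 and Kcnj11, and Kcnmb2 is open in every library.

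The 4 comparisons below share libraries, each library entering a pair of them. Where a count under an alternative setting is printed without a share of all genes, it is not set against a background. In the arch, smooth muscle of the cKO library differed from the control library by 2-fold or more in 14 of the 30 potassium channel genes that had 50 or more UMIs over the pair of libraries. Over all genes that reached this count, 13.2% differed as much. Lower in the cKO were 11 genes, against 8.56% of all genes, and higher were 3, against 4.61%. The median log2 ratio was -0.53 over the 30 genes and -0.14 over all genes tested. Kcnma1 had a log2 ratio of -1.60 (interval -1.74 to -1.47), Kcnj15 -1.97 (-2.15 to -1.79), Kcnab1 -1.31 (-1.44 to -1.18), Kcns3 -1.27 (-1.59 to -0.97) and Kcnk3 -1.23 (-1.46 to -1.002). Smaller counts stood behind Kcna2 (Kv1.2), with 38 and 349 UMIs and -1.43, Kcna6 (Kv1.6), with 7 and 100 UMIs and -2.07, Kcnn1 (SK1), with 22 and 160 UMIs and -1.10, and Kcnip4, a calcium-binding partner of Kv4 channels, with 104 and 724 UMIs and -1.03. Kcnmb1 was 1.68-fold lower in the cKO arch, at -0.75 (-0.80 to -0.69), short of 2-fold. Abcc9 and Kcnh2 differed by at most 1.032-fold, with log2 ratios of 0.04 and 0.05.

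Kcnj8 was just past 2-fold, at -1.01 (-1.16 to -0.86). It came to -0.89 with median-of-ratios scaling, which moved the median of all genes by 0.12, and to -0.19 among smooth muscle cells without a UMI of Rgs5, a regulator of G-protein signalling that also marks pericytes. Rgs5 itself stood at 124.6 CPM in cKO arch, 544 in control arch, 838.8 in cKO descending and 515.4 CPM in control descending smooth muscle. The summed pericyte markers, all 10 of which are also found in smooth muscle sums, stood at 831.7, 1344, 1985 and 1622 CPM, and their part in the Kcnj8 difference was not tested.

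The 3 genes higher in cKO arch smooth muscle had low levels. Kcnt1, a sodium-activated pore, had 50 UMIs (3.06 CPM) in the cKO and 17 (0.306 CPM) in the control, which gives a log2 ratio of 3.32 (2.50 to 4.21). Over all kept cells it had 100 UMIs in the cKO arch against 17, 9 and 11 in the others. Since that library alone used another feature list, this excess cannot be told apart from a difference in annotation. Kcnk1 (TWIK-1) had 58 UMIs against 36, a log2 ratio of 2.45 (1.83 to 3.10), but 3.55 CPM in the cKO arch was near the 2.22 and 3.42 CPM of the descending libraries, and the control arch, at 0.648 CPM, was the low one. Kcnj12 (Kir2.2) gave 1.07 (0.48 to 1.65), with 2.57 against 1.22 CPM, and it too was higher in the descending libraries, at 8.88 and 6.67 CPM.

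In the descending aorta no potassium channel gene of smooth muscle was past 2-fold between genotypes, 0 of 28, while 1.36% of all genes were. The median log2 ratio was 0.16 over the 28 genes and -0.04 over all genes. Kcnma1 had a log2 ratio of -0.08 (-0.18 to 0.02), Kcnmb1 -0.02 (-0.08 to 0.03), Kcnj8 -0.04 (-0.18 to 0.10) and Abcc9 0.22 (0.15 to 0.29). Whether the arch and descending ratios of a gene differ could not be tested with 1 library per group.

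**Figure D4:**
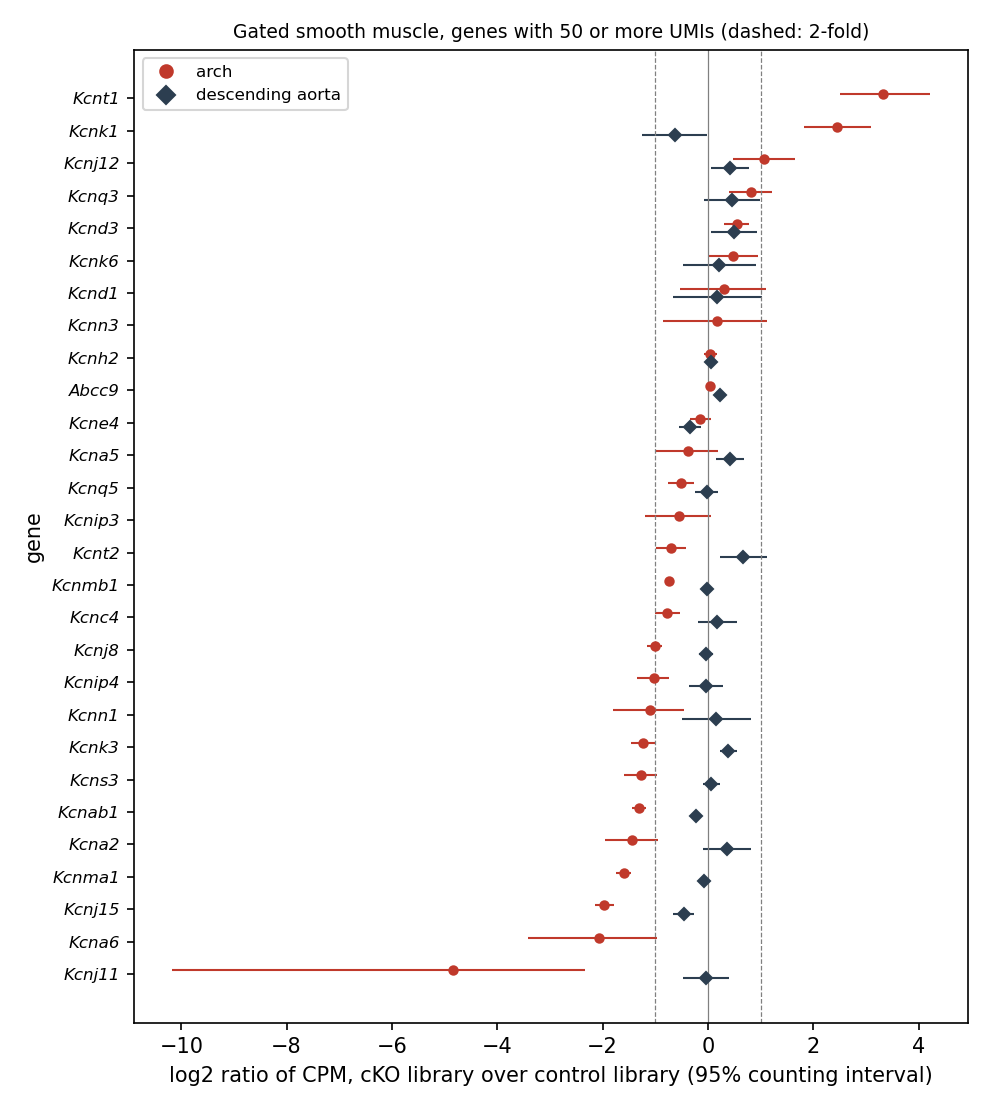
Log2 ratio of CPM, cKO over control, in gated smooth muscle for 28 of the 30 potassium channel genes with 50 or more UMIs in the arch pair (circles) and, where they reach that count, in the descending pair (diamonds), with 95% counting intervals and dashed lines at 2-fold. The arch points run from -4.85 for Kcnj11 to 3.32 for Kcnt1, and all diamonds lie inside the dashed lines.

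The cell states that made up gated smooth muscle differed between the arch libraries. In the cKO arch 54.5% of gated smooth muscle cells (753) fell into a cluster that held 70 such cells of the control arch, and Spp1, Comp and Tnfrsf11b, genes known from bone, cartilage and matrix, were higher in that library: Spp1 stood at 210.4 CPM in cKO arch smooth muscle and 0.36 in the control arch, and Tnfrsf11b at 187.6 and 13.9. Kcnma1 stood at 23.5 CPM inside that cluster and 40.9 outside it in the cKO arch, against 57.1 and 87.4 in the control arch. Kcnab1 stood at 31.0 and 40.7 CPM in the cKO arch, against 88.5 and 83.6 in the control arch. Both genes were lower in the cKO arch library inside as well as outside the cluster, but neither side compared like cells. Spp1 stood at 268.5 CPM in the cKO and 0 in the control arch inside the cluster, and at 68.5 and 0.37 outside it. The part of cell state in these differences was not tested. Kcnk3 stood at 6.90 CPM inside and 20.9 outside in the cKO arch, and at 17.7 and 25.8 in the control arch. Inside the cluster Kcna2 was also lower in the cKO arch, at 1.38 against 3.22 CPM. Other genes lower in the cKO arch over the whole class were not lower inside it. Kcnj15 stood there at 16.6 CPM in the cKO and 13.7 in the control arch, and Kcnj8 at 28.9 and 21.7. Kcns3 stood at 4.74 and 4.02, and Kcnip4 at 4.83 and 3.22. The control counts behind these were small, from 4 to 27 UMIs. Among the 499 cKO and 3085 control arch cells with no UMI of Spp1, Comp or Tnfrsf11b, 6 of 26 genes were past 2-fold, 5 of them lower in the cKO, against 12.3% of all genes. The log2 ratio there was -1.36 for Kcnma1, -1.90 for Kcnj15 and -1.12 for Kcnj8. It was short of 2-fold for Kcnab1 (-0.87), Kcns3 (-0.81), Kcnk3 (-0.78) and Kcna2 (-0.60). Thinned to 3000 UMIs per cell, 4 of 18 genes were past 2-fold, all lower, against 9.26% of all genes.

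Between regions of the control animals, 10 of 28 potassium channel genes of smooth muscle differed by 2-fold or more, against 7.34% of all genes. Higher in the arch were 5 (3.48% of all genes): Kcna6 (1.80 against 0.472 CPM), Kcnt2, a second sodium-activated pore (12.2 against 4.19), Kcnc4 (18.3 against 6.78), Kcnj15 (64.7 against 26.7) and Kcnip3, a partner of Kv4 pores also known as DREAM (2.41 against 1.12). Lower in the arch were 5 (3.86% of all genes): Kcnj12 (1.22 against 6.67 CPM), Kcnk1 (0.648 against 3.42), Kcna5 (2.47 against 11.7), Kcnj11 (1.76 against 5.43) and Kcns3 (14.3 against 32.5). The Kcna5 log2 ratio was -2.25 (-2.58 to -1.93). The Kcns3 ratio was -1.18, but 0.34 among cells without an Rgs5 UMI, so its direction turned with that subset. Thinned to 3000 UMIs, 5 of 19 genes were past 2-fold. Different clusters made up the class in the 2 regions: 42.4 and 16.0% of control arch smooth muscle (1627 and 614 cells) lay in 2 clusters that held 22 and 0 kept cells of the control descending library, while 43.4% of control descending smooth muscle lay in a cluster with 21.1% of the control arch cells. The part of this make-up was not tested. The control arch library also stood apart in Dbp, an output gene of the circadian clock, at 10.2 CPM in smooth muscle against 192.5, 426.5 and 371.5 in the cKO arch and the descending libraries, and its part in the regional and arch differences was not tested.

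Between regions of the cKO animals, 13 of 27 genes were past 2-fold, against 12.2% of all genes. Lower in the arch were 11 (7.63% of all genes), led by Kcnj11 (1 against 93 UMIs), Kcnj2, the Kir2.1 pore (2 against 48 UMIs, log2 ratio -4.48, interval -7.57 to -2.55), Kcna5 (-3.05), Kcns3 (-2.52), Kcnk3 (-2.04), Kcnj12 (-1.79), Kcnab1 (-1.77) and Kcnma1 (-1.69), with Kcna2 and Kcnq5 at -1.26 and -1.14. Higher were 2 (4.58%), Kcnt1 (2.94) and Kcnd3 (1.05, 13.0 against 6.32 CPM). Kcna5, Kcns3, Kcnj11 and Kcnj12 were thus lower in the arch in both genotypes. The median was -0.84 over the 27 genes and -0.16 over all genes, and the scaling alternative moved the latter by 0.17. Thinned to 3000 UMIs, 8 of 19 genes were past 2-fold.

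The cKO arch feature list holds an entry named RFP, the reporter, and within that library smooth muscle was split by it. Between 404 cells with 16 or more RFP UMIs and 848 with fewer than 8, 3 of 18 genes were past 2-fold, against 2.56% of all genes. Kcnk3 stood at 20.2 CPM in RFP-high and 7.46 in RFP-low cells, Kcnc4 at 3.82 and 15.0, and Kcnj15 at 9.55 and 21.0. Kcnma1 was close in both, at 25.3 and 31.0 CPM, with a log2 ratio of -0.30 (-0.62 to 0.02), and so was Kcnmb1, at 187.5 and 211.6 CPM. Smad4 stood at 38.8 CPM in RFP-high and 72.5 in RFP-low smooth muscle. Cells of both sets come from 1 library and are not replicates of a condition. Among fibroblasts, 258 RFP-high and 459 RFP-low cells differed by 2-fold in 1 of 8 genes (2.18% of all genes), Kcnma1, at 4.38 and 10.8 CPM.

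Gated pericytes were described in the descending libraries alone. Among the 5 genes detected there were Abcc9 and Kcnj8, then Kcnk3 at 196 CPM in the cKO and 232 in the control, and Kcnq5 at 126 and 105. Kcnk3 and Kcnq5 had means 7.37 and 7.06 times those of smooth muscle, the next class. The smooth muscle means, 29.0 and 16.4 CPM, cover all 4 libraries. Smooth muscle of the descending libraries lay above them for both genes, so the folds within those libraries were smaller. Of the 4 genes with 50 or more UMIs, 0 were past 2-fold between genotypes, against 2.94% of all genes. Abcc9 had a log2 ratio of 0.39 (0.17 to 0.61) and Kcnj8 of -0.10 (-0.33 to 0.13). Kcnj8 and Abcc9 were no gate markers, although both are often used to name pericytes.

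Endothelium carried a partly different set, led in the mean over libraries by the calcium- or sodium-activated pores Kcnt2 and Kcnn4. In the control descending library the voltage-gated pore Kcna5, at 52.1 CPM, was above both. Kcnn4, the IK1 channel of endothelium-dependent hyperpolarisation, stood at 43.5, 81.2, 27.1 and 17.7 CPM, and Kcnn3 (SK3) at 23.5, 33.0, 13.8 and 9.78. Both were higher in the 2 arch libraries than in the 2 descending ones. A Kcnn4 UMI was found in 16.3, 24.7, 9.22 and 5.91% of endothelial cells, or 10.7, 18.9, 6.31 and 3.74% thinned. In smooth muscle, which had the lowest Kcnn4 level of the 4 larger classes in every library, though not 0, the shares were 0.94, 0.182, 0.453 and 0.378%, or 0.165, 0, 0.0727 and 0% thinned, although its median depth of 10480 to 13670 UMIs exceeds the 3532 to 5165 of endothelium. Kcnt2 stood at 46.9, 60.4, 38.1 and 25.6 CPM, and Kcna5 at 41.3, 20.0, 35.1 and 52.1. Kcnk6 (TWIK-2), at 11.5 to 16.7 CPM, and Kcnj2 (Kir2.1), at 9.05 to 13.5 CPM, varied least among these. Kcnc2 stood at 13.4, 4.18, 5.31 and 9.78 CPM.

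In control endothelium 7 of 13 genes were past 2-fold between arch and descending aorta, against 10.0% of all genes. Kcnn4 (log2 ratio 2.20, 1.82 to 2.60), Kcnn3 (1.75, 1.22 to 2.32) and Kcnt2 (1.24, 0.89 to 1.59) were higher in the arch, 3 genes against 5.44% of all genes, and Kcnk3 (-2.10), Kcna5 (-1.38, -1.77 to -1.01) and Kcnc2 (-1.23) were among the 4 genes that were lower, against 4.56%. Kcnt2 is also a fibroblast gene, and summed fibroblast markers stood at 932 and 1630 CPM in arch endothelium against 364 and 390 in the descending libraries. Their part was not tested. The clusters of the class differed too: 49.2% of control arch endothelium lay in one cluster and 24.0% in another, which held 14.2 and 51.0% of control descending endothelium, and the part of this make-up was not tested. At a minimum of 20 UMIs, 11 of 20 genes were past 2-fold. Between genotypes, 2 of 8 genes were past 2-fold in the arch (10.2% of all genes): Kcna5, higher in the cKO at 1.05 (0.45 to 1.62), and Kcnj8, lower with 4 against 57 UMIs at -1.57 (-3.49 to -0.13). This count was 5 of 18 at a minimum of 20 UMIs and 1 under 4 other settings. Kcnj8 did not count as detected in endothelium in any library. Its mean was 8.09 CPM there, against 1655 CPM in pericytes of the descending libraries. Arch pericytes numbered 4 (cKO) and 30 (control), and the part of pericyte RNA in the Kcnj8 ratio was not tested. In the descending aorta 1 of 13 was past 2-fold between genotypes (2.31%): Kcnk3, at 5.14 CPM in the cKO and 20.9 in the control. Summed adipocyte markers stood at 198.0 and 555.7 CPM in the same endothelium, and Kcnk3 at 331 CPM in 37 gated adipocytes of the control descending library. The part of that RNA was not tested. Between regions of the cKO animals 1 of 8 was past 2-fold (11.8%), a count that was 5 of 12 with classes taken from clusters and 4 of 16 at a minimum of 20 UMIs.

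Fibroblasts shared Abcc9 and Kcnj8 with the mural cells and Kcnt2 with endothelium, the last at 42.8, 51.8, 49.97 and 52.6 CPM with little difference between libraries. Kcne4 stood at 19.5, 12.8, 21.1 and 22.3 CPM, Kcns3 at 9.62, 11.8, 19.5 and 21.0, and Kcnma1 at 7.72, 14.9, 7.54 and 6.52. Kcnj15 stood at 5.82, 27.7, 0.413 and 0.774 CPM, so it was nearly confined to the arch libraries. In the cKO arch it had 41 UMIs (7.87 CPM) in the 503 fibroblasts of the largest cluster, described below. The other 265 cells had 2 UMIs (0.92 CPM).

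Kcnn4 set the cKO arch fibroblasts apart. It had 151, 5, 9 and 6 UMIs, or 20.5, 0.317, 0.929 and 0.663 CPM, and a UMI was found in 5.47, 0.267, 0.545 and 0.503% of cells, or 2.27, 0, 0.397 and 0% thinned. The log2 ratio of cKO to control arch was 6.01 (4.76 to 7.66), and at least 3.91 among cells thinned to 3000 UMIs, where the control arch had no Kcnn4 UMI and was set to the floor of 3 counts. In the cKO arch 65.5% of gated fibroblasts (503) lay in 1 cluster led by Ibsp, Cxcl13 and Spp1, where Kcnn4 stood at 22.7 CPM, and the other 265 cells gave 15.2 CPM. Leukocytes also carry Kcnn4, and summed leukocyte markers stood at 113.5 CPM in cKO arch fibroblasts against 28.2, 41.7 and 46.2 in the others. Ptprc, the pan-leukocyte CD45 gene, had 39, 12, 6 and 7 UMIs in fibroblasts, highest in the same library, and the part of leukocyte RNA in the Kcnn4 difference was not tested. Smooth muscle of the same library had 1.65 CPM of Kcnn4, above the smooth muscle mean of 0.64 CPM over all 4 libraries. Macrophages of that library were also higher in Kcnn4, as given below, so a higher level there was not confined to fibroblasts.

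Beside Kcnn4, 6 genes were past 2-fold between arch fibroblasts of the 2 genotypes, all lower in the cKO. Of all genes 9.25% were as much lower and 6.07% as much higher. With Kcnn4 this makes 7 of 23, against 15.3% of all genes, with a median log2 ratio of -0.38 over the 23 genes and -0.10 over all. Kcnj15 had a log2 ratio of -2.25, Kcnn3 -2.35, Kcnk5 (TASK-2) -2.04, Kcnj8 -1.34, Kcnmb4, a BK beta subunit best known from neurons, -2.58, and Kcnq5 -1.75. Kcnj8 stood at 39.3 CPM inside the cluster that held most cKO arch fibroblasts and at 92.0 outside it, and its ratio outside was -0.59. Kcnk5 came to -0.45 there, and Kcnn4 came to 5.58. Thinned to 3000 UMIs, 2 of 8 genes were past 2-fold.

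The control arch held 149 gated fibroblasts in a cluster with 0 gated fibroblasts of any other library, led by Cyp26a1, Wif1, Ucma and Tbx20. Kcnmb4 stood at 69.5 CPM inside it and 1.91 in the other 1722 control arch fibroblasts, Kcnj15 at 126.1 and 16.3, Kcnma1 at 56.7 and 10.0, and Kcnq5 at 33.5 and 1.20. Kcnj8 went the other way, at 28.0 inside and 151.6 outside. Without these cells the arch ratio of cKO to control came to -0.36 for Kcnmb4 and 0.17 for Kcnq5, while Kcnj15 came to -1.49. The ratio of control arch to descending aorta came to 3.11 from 5.34 for Kcnmb4, to 4.399 from 5.16 for Kcnj15, to 0.86 from 2.78 for Kcnq5 and to 0.62 from 1.19 for Kcnma1.

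Between regions of the control animals 9 of 23 fibroblast genes were past 2-fold, against 7.80% of all genes. In addition to those 4, Kcna2 (2.17), Kcnab1 (1.43) and Kcnmb1 (1.33) were higher in the arch, 7 in all against 4.73% of all genes, and Kcnk2 (-1.15) and Kcnd1 (-1.06), the Kv4.1 pore, were lower, 2 against 3.07%. The count was 2 of 9 among thinned cells. Smooth muscle markers summed to 1319 and 1254 CPM in arch fibroblasts and to 626 and 570 in descending ones, beside Kcnab1 and Kcnmb1, and their part was not tested. Between regions of the cKO animals 8 of 18 were past 2-fold (16.4%): Kcnn4 (4.46), Kcnmb1 (1.39) and Kcnab1 (1.36) were higher in the arch (3 against 7.63%), and Kcnk5 (-2.69), Kcnk2 (-2.66), Kcnn3 (-2.08), Kcnn1 (-1.02) and Kcns3 (-1.02) lower (5 against 8.79%). Among cells thinned to 3000 UMIs 0 of 6 genes were past 2-fold, and the Kcnmb1 ratio turned to -0.29. Outside the largest cKO arch cluster 4 of 15 were. In the descending aorta 1 of 15 was past 2-fold between genotypes (1.51%): Kcnk2, at 12.8 CPM in the cKO and 4.64 in the control, a log2 ratio of 1.46 (0.95 to 2.01). Kcnk2 stood at 2.03 and 2.09 CPM in the arch libraries, so the cKO descending library was the high one.

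Leukocytes were led by Kcnn4, at 76.4, 61.7, 41.9 and 37.0 CPM, and by Kcnab2, at 39.2, 49.8, 67.1 and 59.1. Kcnk13, at 14.9 to 24.4 CPM, and Kcnk6, at 18.4 to 19.9, varied little between libraries. Kcna3 stood at 7.25, 24.3, 8.88 and 7.76 CPM, Kcnmb4 at 2.83, 17.8, 2.72 and 1.16, Kcnq5 at 2.06, 12.3, 8.52 and 8.28, and Kcne3, an auxiliary subunit of Kv channels, at 2.60, 5.09, 9.79 and 6.21. The mix of leukocytes differed between libraries: macrophages numbered 856, 288, 404 and 468, neutrophils 373, 5, 19 and 8, and 231 thymocytes came from the control arch library. Those thymocytes had Kcnn4 at 102 CPM, Kcna3 at 53.6, Kcnmb4 at 36.7 and Kcnh3, a Kv12 pore, at 24.96, and neutrophils of the cKO arch had Kcnj2 at 42.0 CPM. Over leukocytes as a whole, 8 of 15 potassium channel genes were past 2-fold between genotypes in the arch (26.7% of all genes) and 0 of 12 in the descending aorta (3.34%). Between regions 3 of 11 were in the control animals (12.7%) and 7 of 15 in the cKO animals (20.2%). The part of the cell mix in these counts was not tested.

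Within leukocyte subsets, Kcnn4 was level in T cells and not in macrophages. T cells gave 99.2, 94.9, 91.5 and 85.6 CPM. Macrophages gave 82.2 CPM in the cKO arch (513 UMIs) and 10.4, 9.67 and 10.0 in the other libraries (21, 27 and 47 UMIs), and the interval of the cKO arch, 75.2 to 89.6 CPM, did not meet the others. The macrophages of that library also stood apart in Spp1, which encodes osteopontin, at 538.5 CPM against 9.89, 1.43 and 0.426. Of the leukocyte clusters, 3 held 810, 421 and 239 kept cells of the cKO arch and at most 25 of any other library, and the part of these populations in the Kcnn4 difference was not tested. Kcnk13 stood at 29.8, 33.6, 37.6 and 38.7 CPM, Kcnab2 at 41.6, 39.1, 53.0 and 51.7, and Kcnk6 at 24.0, 45.0, 33.7 and 27.9. Rarer genes differed as well: Kcnip4 had 2, 16, 14 and 20 UMIs (0.320, 7.91, 5.02 and 4.26 CPM) in macrophages, Kcng2 stood at 1.60, 10.4, 9.67 and 4.68 CPM, and Kcna3 at 6.57, 0.989, 4.30 and 1.70. Kcna3 stood at 5.90, 45.9, 16.0 and 23.4 CPM in T cells, highest in the control arch, where thymocytes were also found.

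**Figure D5:**
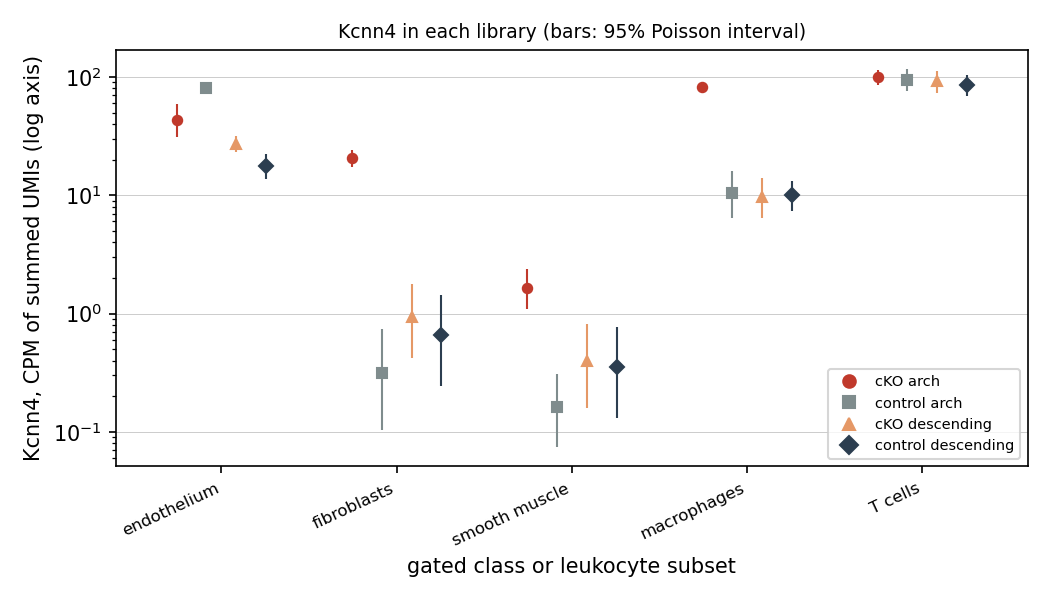
Kcnn4 in CPM on a log axis for endothelium, fibroblasts, smooth muscle, macrophages and T cells, 1 point per library with its 95% Poisson interval. The cKO arch point lies near 82.2 CPM in macrophages and 20.5 in fibroblasts, above the other 3 libraries in both, while T cells lie between 85.6 and 99.2 CPM in every library.

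Outside the 5 classes, gated Schwann cells carried the Kv1 genes known from peripheral nerve: in 43 cells of the control arch, 69 of the cKO and 47 of the control descending library, Kcna1 stood at 2204, 2394 and 2188 CPM, Kcna2 at 1190, 1622 and 1158, and Kcna6 at 412, 565 and 520. Kcna1 was under 1 CPM in the mean of every one of the 5 classes. These values, and the Kcnk3 level of adipocytes, were picked after they were seen.

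A list of 28 partners of potassium transport, sodium pumps, potassium-coupled cotransporters and auxiliary proteins whose symbols do not start with Kcn, was read the same way in smooth muscle. In the arch 4 of 19 were past 2-fold between genotypes, against 13.2% of all genes, with a median log2 ratio of -0.09 against -0.14 for all genes. Fxyd5, a regulator of the sodium pump, was at 148.6 CPM in the cKO and 38.6 in the control, Dpp10 was also higher (2.11), and the pump subunit Atp1b2, at 41.7 against 95.2 CPM, and Fxyd6 (-1.16) were lower. Between genotypes of the descending library pair 0 of 15 were, against 1.36% of all genes. Between regions of the control animals 3 of 20 were, against 7.34%, among them Atp1b1, another pump subunit, at 74.1 against 17.5 CPM, and Dpp10, with 56 UMIs against 1.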

How the data were processed

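Deposited matrices of UMI counts per gene and droplet were used as the authors deposited them, made with Cell Ranger 6.1.1 on mm10 per the submitters' processing notes; the sources used here do not say whether strand was used in counting. Cells with at least 500 genes and under 10% mitochondrial UMIs were kept, and the highest Scrublet scores were removed as doublets at 0.8% per 1000 barcodes, since its automatic threshold marked as little as 0.0342% of cells. Cells were put into classes by counts of marker genes and their UMIs, and UMIs were summed per class and library and divided by the class total of the 27734 shared genes (CPM). A gene was compared at 50 or more UMIs over both libraries and counted at a 2-fold ratio. Poisson intervals were used for levels, conditional binomial ones for ratios, and Clopper-Pearson ones for shares, all at 95%. The floor for a share or level of 0 was 3 counts. There is no test, since each group is 1 library. The members and gene lists were chosen with earlier results of these data known, and gate thresholds were set from marker levels. Genes were named by rule: the 8 highest detected genes of each class, those past 2-fold in smooth muscle, endothelium or fibroblasts (at most 8 per direction), the KATP and BK genes, and those of a single class at 5 times the next. Leukocyte subsets, RFP classes and gene positions inside clusters were described after values were seen. Clusters came from scanpy 1.11.5 and leidenalg 0.10.2, without the potassium channel genes among the variable genes. Promoter stretches are RefSeq's (GRCm38.p6), positions GENCODE vM21. The ratios and their intervals were checked on simulated class sums with Poisson noise. Python 3.11.15, pandas 2.3.3 and scipy 1.17.1 were used. Of the 96 genes, 45 are overlapped by another annotated gene, Kcnmb4 among them by antisense transcripts, and their counts are uncertain to that extent. Values of a few genes are not reported here, although counts and medians over the genes include them.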

Additional observations from a re-analysis of the deposited data

Results flagged for a closer look

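In 6 cases a gene had arch and descending log2 ratios of cKO over control in opposite directions, with counting intervals on either side of 0. The difference between regions was not tested in any of them, since each group is 1 library. These cases are not set against a background, because the share of all genes that met the same rule was not counted.

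In gated smooth muscle Kcnt2 gave -0.69 (-0.98 to -0.41) in the arch and 0.67 (0.23 to 1.12) in the descending aorta. Kcnk3 gave -1.23 (-1.46 to -1.002) and 0.39 (0.23 to 0.55). Kcnk1 gave 2.45 (1.83 to 3.10) and -0.62 (-1.25 to -0.01).

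In endothelium Kcna5 gave 1.05 (0.45 to 1.62) in the arch and -0.57 (-0.86 to -0.28) in the descending aorta, and Kcnn4 gave -0.90 (-1.42 to -0.42) and 0.61 (0.19 to 1.05). In leukocytes Kcne3 gave -0.97 (-1.75 to -0.18) and 0.66 (0.07 to 1.25), in classes whose mix of macrophages, neutrophils and lymphocytes differed between libraries.

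The antisense transcript Kcnq1ot1, left out of the members, had a signal in every library. Over all kept cells it stood at 79.1 CPM in the cKO and 70.7 in the control of the arch, and at 98.5 and 83.5 CPM in the descending aorta.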

How the results depend on the processing

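No paired analysis was possible because each group is 1 library. Of 124 counts of genes past 2-fold under alternatives 91 were within 1.5 times the count as reported, and of 37 counts of detected genes 34 were. At 20 UMIs and 10 CPM, 7 genes were detected in endothelium, 9 in fibroblasts and 7 in leukocytes. Of 522 log2 ratios of named genes 477 stayed past 2-fold in their direction, 42 fell short of it and 3 turned: Kcnmb1 in fibroblasts, cKO arch over descending, came to -0.29 when thinned, Kcns3 in smooth muscle, control arch over descending, to 0.34 without Rgs5 cells, and Kcnq5 in arch fibroblasts to 0.17 without the control arch cluster. In all, 41 of 68 named ratios were past 2-fold under every alternative run; the causes were not tested.

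The counts that moved were these, with arch and descending for the genotype comparisons and control and cKO for the regional ones. They are given without the share of all genes and show only how far each count moved. At 1.5-fold they were 15 and 2 in fibroblasts and 14 (control), 3 in descending smooth muscle and 20 (cKO), 3 in descending endothelium and 3 (cKO). At 100 UMIs, arch endothelium had 1, and fibroblasts 4 (control) and 3 (cKO). At 20 UMIs, endothelium had 5 and 2, then 11 (control) and 4 (cKO), and descending fibroblasts 3. Thinned to 3000 UMIs, smooth muscle had 4 in the arch, 5 (control) and 8 (cKO), endothelium 1 and 0, then 2 (cKO), and fibroblasts 2 in the arch, 2 (control) and 0 (cKO); thinning leaves fewer genes at the UMI minimum by construction. With stricter cell filters endothelium had 2 (cKO), by Leiden clusters 1 and 2, then 5 (cKO), and with no doublet removal 1 in the arch and 2 (cKO). Chosen after seeing the data, smooth muscle without Tnfrsf11b, Comp or Spp1 UMIs had 6 (arch) and 1 (descending), and fibroblasts outside the largest cKO arch cluster 4 (cKO).

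Pericytes had no detection count under stricter cell filters, Leiden clusters or thinning, which left fewer than 50 cells. Depth limits the rarest genes: 48 of 96 had 100 or more UMIs in all kept cells, and a level resting on a few UMIs, such as Kcnj11 in the cKO arch, is known only within its interval.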
